A study of Ovis aries with 9 samples.

Results

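The small RNA of control ram sperm was described from the samples labelled CON, which are 3 of the 9 samples of the series and were chosen by that label alone. They are wild-type F1 rams of the sheep Ovis aries whose treatment is given as standard feeding in a study of the nutrition of pregnant ewes. Sperm came from semen, somatic cells were lysed with a buffer of SDS and Triton X, RNA was extracted with TRIzol, and fragments of 15 to 50 nt were selected for the libraries. The 3 deposited tables hold the same 1311597 distinct sequences, and 0 of these differ in reads, genome flag or annotation terms, so they were counted as 1 library of 9983895 reads. There is therefore no spread between animals and no test. An interval of a share is an exact Clopper-Pearson 95% interval of this 1 library, and an interval of an RPM value is an exact Poisson 95% interval. Both take reads as independent. They cover counting error at most and can be too narrow, since reads without molecular identifiers are not independent molecules. The number of rams behind the table, and whether their RNA was pooled, is not given in the sources used here. Every value below is a level in this library, as a count of reads, a share of reads, or RPM, the count scaled to the reads of the whole library.

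Mature sperm have shed most of their cytoplasm and no longer transcribe their genome. The small RNAs they carry are known to be mainly fragments of longer RNAs, above all the 5′ parts of tRNAs cut in or near the anticodon loop, together with microRNAs (miRNAs) and piRNAs. A miRNA finds its targets through its seed, bases 2 to 8. piRNAs guide PIWI proteins against transposons in the male germ line and usually start with U. Y RNAs are short polymerase III transcripts bound by the Ro60 protein, and 7SL RNA is the scaffold of the signal recognition particle.

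A few sequences hold much of the library, and several that the results turn on are printed here 5′ to 3′ as the table gives them, with T for U. For the nuclear tRNAs, capitals mark the bases of the anticodon that a read reaches, so that a line with no capitals is a read that stops before it. A line is headed by 1 anticodon for short, although the Gly, Val and Pro reads shown carry the names of several isoacceptors in the table.
tRNA-Glu-TTC, 30 nt: tcccacatggtctagcggttaggattcctg
tRNA-His-GTG, 30 nt: gccgtgatcgtatagtggttagtactctgc
tRNA-His-GTG, 31 nt: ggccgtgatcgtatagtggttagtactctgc
tRNA-His-GTG, 34 nt: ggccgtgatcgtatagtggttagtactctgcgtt
tRNA-Gly-GCC, 30 nt: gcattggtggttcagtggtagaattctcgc
tRNA-Gly-GCC, 33 nt: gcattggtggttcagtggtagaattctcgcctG
tRNA-Val-CAC, 23 nt: gtttccgtagtgtagtggttatc
tRNA-Pro-CGG, 29 nt: ggctcgttggtctaggggtatgattctcg
A 30 nt tRNA-Glu-CTC read, not shown, was the most read sequence of all, with 366770 reads or 3.67% of the library. The 30 nt tRNA-His read followed with 315501 reads, and the 29 nt form of tRNA-Glu-CTC came next with 260468.

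The Y RNA fragments are shown because the length forms of 1 of them together make up nearly the whole class. Capitals in the second line mark the 6 bases at which it differs from the first.
Y RNA, first 5′ fragment, 32 nt: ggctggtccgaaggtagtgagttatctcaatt
Y RNA, second 5′ fragment, 32 nt: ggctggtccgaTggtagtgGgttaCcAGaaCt
Y RNA, 3′ fragment, 28 nt: cttctcactactgcacttgactagtctt
The first carries the letters of the 5′ end of Y1, the second those of the 5′ end of Y4 and the 28 nt read those of the 3′ end of Y1, as known for mammals.

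A choice of miRNAs, some of the leading ones and members of the groups described, is shown with the seed in capitals, each by its most read sequence that matches the genome.
miR-21-5p: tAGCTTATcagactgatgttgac
miR-100-5p: aACCCGTAgatccgaacttgtgt
miR-99a-5p: aACCCGTAgatccgatcttgt
miR-34c-5p: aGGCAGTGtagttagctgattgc
miR-449a: tGGCAGTGtattgttagctgg
miR-148a-3p: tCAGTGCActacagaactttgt
miR-191-5p: cAACGGAAtcccaaaagcag
miR-16-5p: tAGCAGCAcgtaaatattggag
miR-30d-5p: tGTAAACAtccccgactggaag
let-7a-5p: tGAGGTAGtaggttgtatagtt
miR-10a-5p: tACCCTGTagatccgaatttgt
miR-200b: tAATACTGcctggtaatgatgac

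Of all reads, 5750116 carried an annotation, a share of 57.6% (interval 57.6 to 57.6). Nuclear tRNA was the largest class at 44.9% of annotated reads (interval 44.9 to 45.0), followed by miRNA at 14.6%, Y RNA at 12.9%, cytoplasmic rRNA at 11.5% and misc RNA, a term of the table that it does not define, at 7.54%. Mitochondrial rRNA held 3.22%, small nuclear RNA 1.45%, mitochondrial tRNA 1.20%, long non-coding RNA 1.13% and small nucleolar RNA 0.253%. Reads filed only as antisense to something made up 0.644%, and reads with other terms 0.687%. The order by number of distinct sequences was another one: rRNA had 58566 sequences and long non-coding RNA 29610, against 18911 for nuclear tRNA, 9107 for miRNA and 1600 for Y RNA. A Y RNA sequence was thus read 462 times on average, a nuclear tRNA sequence 137 times, an rRNA sequence 11.3 times and a long non-coding RNA sequence 2.19 times.

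Most reads, 77.9%, matched the genome, but only 62.95% of distinct sequences did. Among annotated reads 96.9% matched. Y RNA and mitochondrial rRNA reads all matched, nuclear tRNA reads matched at 98.97% and miRNA reads at 99.5%, while cytoplasmic rRNA reads matched at 78.6%. Within rRNA the species named 28S matched at 68.2%, 18S at 88.9%, and 5S and 5.8S at 100%. Reads with no annotation fell into 2206491 that matched the genome and 2027288 that did not.

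Read lengths ran from 15 to 42 nt with a sharp peak at 30 nt, which held 16.3% of reads, and a lower one at 23 nt with 5.99%. The window of 29 to 33 nt held 47.1% of all reads and that of 21 to 24 nt held 17.6%. The classes had their own lengths: 89.4% of miRNA reads were 21 to 24 nt, 77.9% of nuclear tRNA reads and 93.3% of Y RNA reads were 29 to 33 nt, and 58.5% of small nuclear RNA reads were 15 to 20 nt. Mitochondrial tRNA reads were shorter than nuclear ones, with 52.0% at 25 to 28 nt. Ribosomal RNA had no such preference, and no 1 length held over 8.26% of its reads. Single sequences set the profile at some lengths: the 40 nt tRNA-Glu-CTC read made up 73.3% of all reads of 40 nt, and the leading sequence of 32 nt, the Y1 fragment, 41.5% of all reads of that length.

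**Figure D1:**
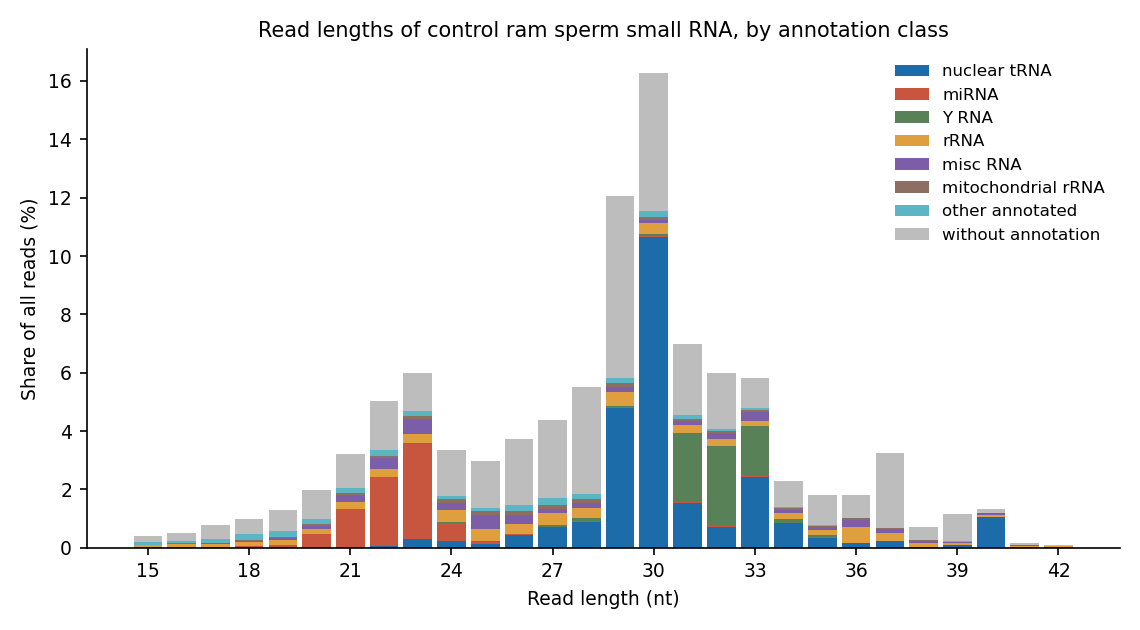
Share of all reads (y axis, percent) at each length in nt (x axis), stacked by annotation class, in the 1 control library. The peak at 30 nt is mainly nuclear tRNA, that at 22 and 23 nt mainly miRNA, and Y RNA is seen at 31 to 33 nt.

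Reads were concentrated in few sequences. The 10 most read sequences held 21.4% of all reads and the 100 most read 44.9%, and 195 sequences out of 1311597 together reached 50% of the reads. At the other end, 901951 sequences (68.8%) were read once and held 9.03% of reads. Sequences with at least 1000 reads numbered 631 and held 57.8%. Many of the leading sequences are length forms of one another. When sequences were joined into families by their first 18 nt, the leading family held 9.61% of all reads, the leading 5 held 27.8%, and 35 families reached 50%. Of these 35 families, 9 were led by a nuclear tRNA sequence and held 23.1% of all reads, 3 by Y RNA with 7.22%, and 5 by a miRNA with 5.44%. Another 13, with 11.4%, were led by a sequence without annotation.

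The classes differed in concentration. For Y RNA 2 sequences held 50% of the class, for nuclear tRNA 6, for small nuclear RNA 8 and for miRNA 11, whereas mitochondrial tRNA needed 41, cytoplasmic rRNA 361, mitochondrial rRNA 410 and long non-coding RNA 3309. The leading sequence held 33.6% of Y RNA, 16.6% of miRNA and 14.2% of nuclear tRNA reads, but 1.62% of mitochondrial rRNA and 0.977% of long non-coding RNA reads.

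**Figure D2:**
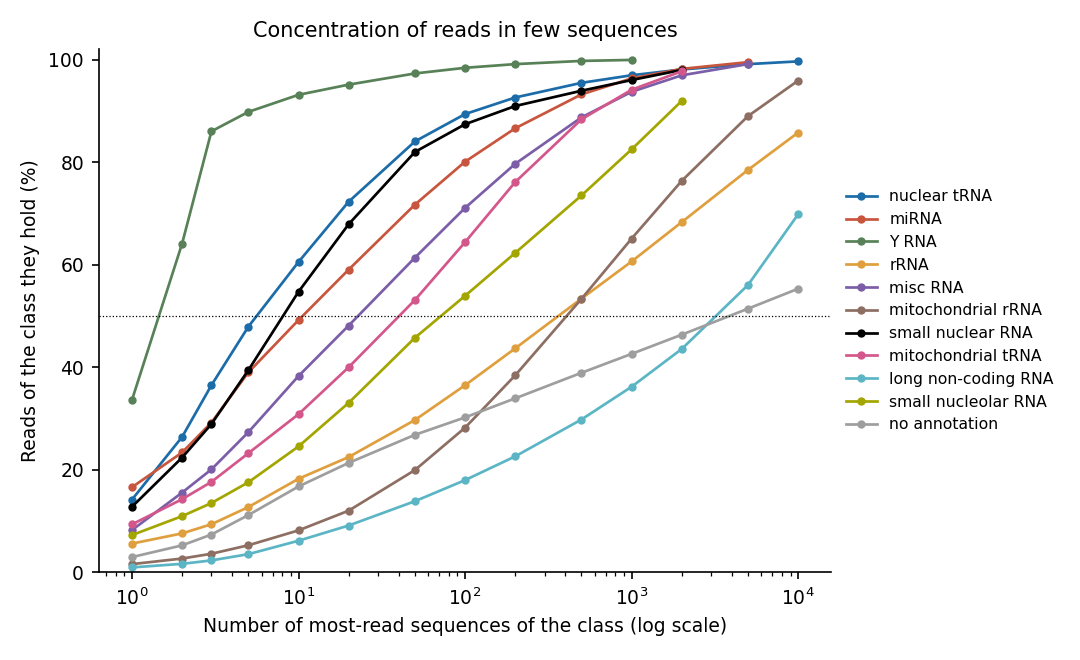
Share of the reads of a class (y axis, percent) held by its most read sequences, against how many sequences are counted (x axis, log scale), 1 line per class of the control library; the dotted line is 50%. Y RNA crosses it at 2 sequences and nuclear tRNA at 6, while rRNA crosses at 361 and long non-coding RNA at 3309.

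Nuclear tRNA fragments came almost wholly from the 5′ side of a few tRNAs. Reads with a 5′ end term made up 76.7% of the class, those with a CCA end term 0.385% and those with a 3′ end term 0.0759%. The remaining 22.8% carried no end term, and 82.7% of these were tRNA-His, whose 30 nt read starts 1 base after the end that the table counts as the 5′ end. CCA, the tail added to a tRNA after transcription, is not encoded in the genome, and 29.4% of the CCA end reads matched it, against 99.1% of the 5′ end reads.

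By amino acid, tRNA-Glu names were on 45.1% of nuclear tRNA reads, tRNA-His on 29.4% and tRNA-Gly on 15.9%. The next were tRNA-Val with 3.22% and tRNA-Pro with 2.28%, and every other amino acid was on at most 1.06%. Names overlap, because a 5′ fragment can fit several tRNA genes: the term Undet, whose meaning is not stated, was on 34.2% of the class, and 75.8% of the Glu reads also carried another amino acid or Undet. Taken one by one, Glu-CTC had 1001103 reads, Glu-TTC 987487 and His-GTG 759612. After these came Gly-GCC with 406631, Gly-CCC with 399401, Gly-TCC with 297337, Val-AAC with 80337, Val-CAC with 80124, Pro-TGG with 58730, Pro-CGG with 57754, Pro-AGG with 57705 and Val-TAC with 31639. Of the Glu-CTC reads 88.4% carried a further tRNA name, and of the Gly-GCC reads 97.6%, so most of these reads cannot be given to 1 isoacceptor, while for His-GTG the share was 0.00764%. With shared reads split equally among their names, His-GTG came first with 759566 reads, ahead of Glu-TTC with 437273. At the low end iMet-CAT, the initiator tRNA, had 937 reads, Trp-CCA 596, Ile-AAT 226 and Met-CAT 209.

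The reads of a tRNA family ended at a small number of places in front of the anticodon. In the leading Glu-CTC family, of 959353 reads, 38.8% were 30 nt long, 27.5% were 29 nt and 12.1% were 33 nt. The anticodon of this tRNA starts at base 34, so the 30 nt read stops 4 bases before it and the 33 nt read directly before it. A further 10.6% of the family were 40 nt and ran past the anticodon, which was seen in no other of the 8 tRNA families at more than 0.637% of reads beyond it. The 2 Glu-TTC families had 70.2% and 64.5% of their reads ending 3 or 4 bases before the anticodon, and 11.03% and 12.7% directly before it. In the Pro-CGG family these shares were 72.5% and 13.4%. In the Gly-GCC family 68.7% ended 3 or 4 bases before the anticodon and 17.6% on an anticodon base, as the 33 nt read above does. The Val-CAC family differed, since 65.6% of its reads ended more than 4 bases before the anticodon and its most frequent length was 23 nt with 31.3%.

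tRNA-His was read from 2 starts. The family with a further G in front had 255740 reads, and the family that starts 1 base later had 453139 reads, or 63.9% of both. Mature tRNA-His is known to carry a G that an enzyme adds to its 5′ end, but 96.03% of the reads of the first family matched the genome, so their letters do not show whether this G was added. The later start was the more uniform, with 70.2% of its reads at 30 nt. The family with the further G was spread more widely: 22.7% were 31 nt, which is the same end as the 30 nt read, 15.5% were 34 nt and ended directly before the anticodon, and 16.5% ended on an anticodon base.

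**Figure D3:**
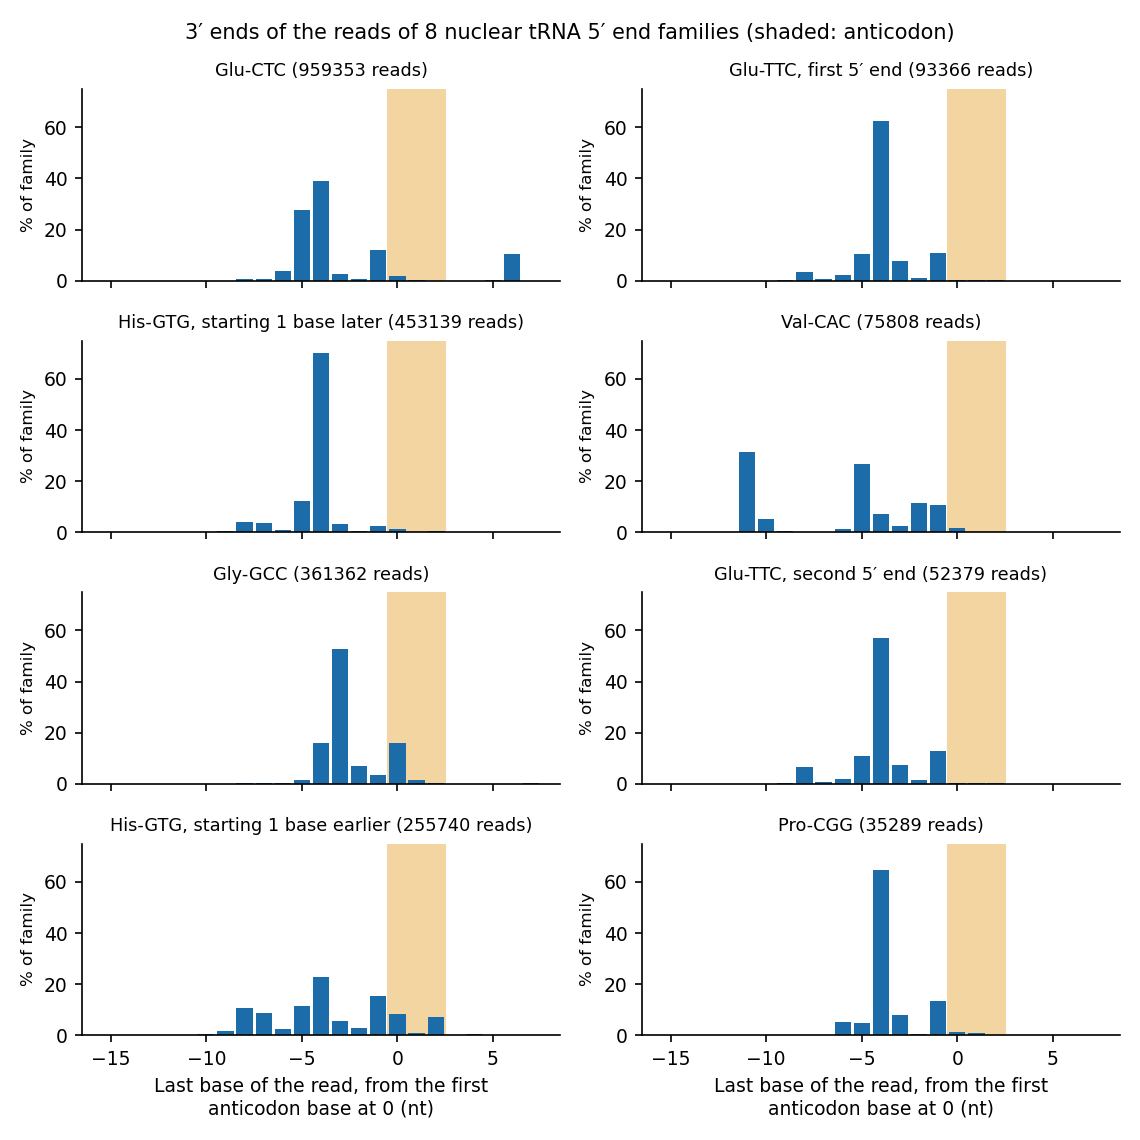
Share of the reads of a family (y axis, percent) by the position of their last base (x axis, in nt, with the first base of the anticodon at 0 and the anticodon shaded), for 8 nuclear tRNA families that share their first 18 nt. All but Val-CAC peak 3 to 4 bases before the anticodon, and Glu-CTC has a further peak past it, its 40 nt read.

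Y RNA was the most concentrated class, and nearly all of it was the 5′ fragment of Y1. The family of the first fragment above held 677049 reads, 91.6% of Y RNA reads and 67814 RPM, and 97.6% of it was 31 to 34 nt. Its 32, 31 and 33 nt forms had 248607, 225416 and 161849 reads. The family of the second fragment, with the letters of Y4, had 21667 reads or 2.93% of the class. The 3′ fragment family had 19466 reads, 2.63%, at a most frequent length of 28 nt. The 5′ fragments of Y1 thus outnumbered its 3′ fragments in this library.

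Among miRNAs, 99 ovine names were found, 57 of them with at least 100 reads, and 36.98% of miRNA reads had the term miRNA with no ovine name. The names with most reads were oar-mir-21 with 184132 reads (18443 RPM), oar-mir-99a with 95600, oar-mir-148a with 51754 and oar-mir-191 with 42653. Behind them were oar-mir-30a with 27950, oar-mir-30d with 25700, oar-mir-10a with 21435, oar-mir-10b with 19979, oar-let-7a with 14256, oar-mir-26a with 14253, oar-let-7f with 13474 and oar-mir-16b with 11109. Names share reads here too: 97.8% of the oar-mir-10b reads and 98.2% of the oar-let-7f reads carried another name as well, and 0% of the oar-mir-21 reads.

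When miRNA reads were gathered by their letters rather than by name, as 5′ end families whatever their annotation, the order changed. The miR-21-5p family, a miRNA found in many tissues, had 197954 reads, and the miR-100-5p family had 195158, nearly as many. The name oar-mir-99a covers both miR-99a and miR-100, which differ by A16T counted from the 5′ end of miR-100: of the reads so named 92.9% have the first 18 nt of miR-100, and the miR-99a-5p family itself had 4972 reads. The name went with the length. The miR-100 reads of 21 nt had the name oar-mir-99a at 98.7%, those of 23 nt had the bare term miRNA at 99.2%, and those of 25 nt were without annotation at 99.98%.

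The miR-34c-5p family came next with 58161 reads (5825 RPM), and 0% of it had an ovine name. It was followed by miR-148a-3p with 51029 reads, miR-191-5p with 40662, miR-16-5p with 17562, miR-30d-5p with 16692, miR-146b-5p with 14757 and miR-26a-5p with 13982. Their 3′ ends were not equally fixed: the leading sequence held 95.8% of the miR-148a-3p family and 78.0% of miR-26a-5p, but 29.1% of miR-100-5p and 22.9% of miR-30d-5p. In the miR-30e-5p family 90.0% of reads were longer than 23 nt.

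**Figure D4:**
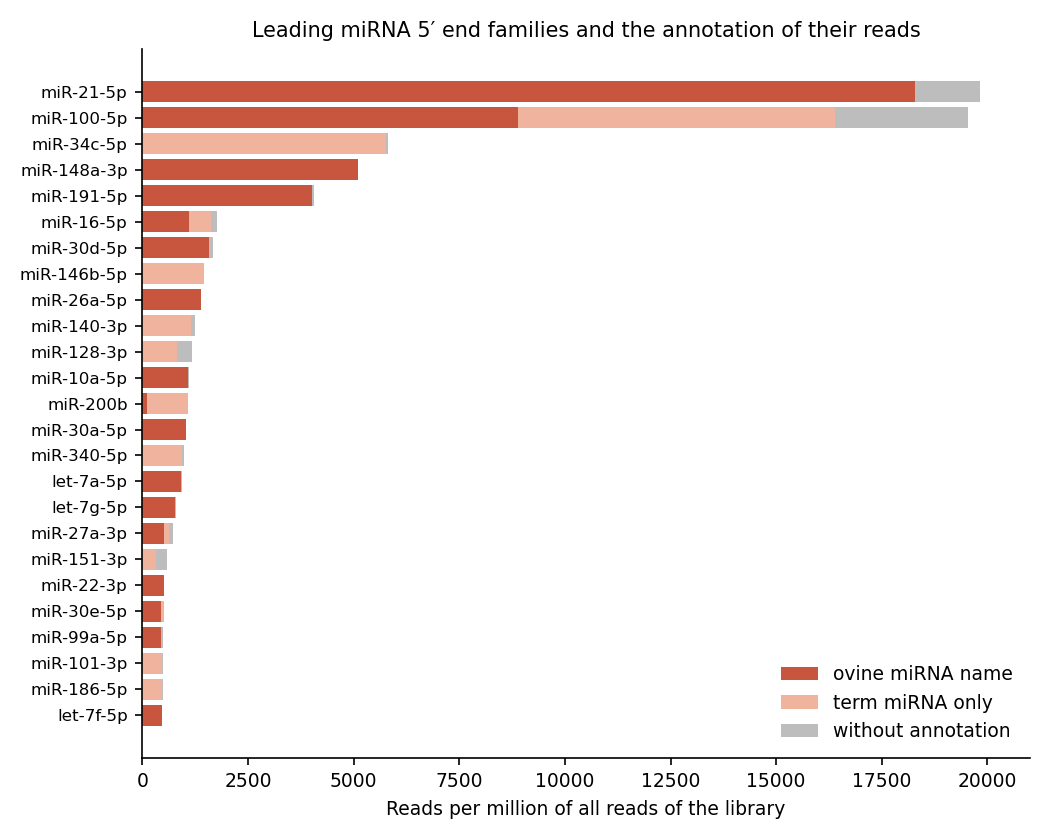
RPM, scaled by all reads of the library (x axis), of the 25 leading named miRNA families (y axis), each the reads that share the first 18 nt of a miRNA, with colours for reads that have an ovine name, only the term miRNA, or no annotation. miR-21-5p and miR-100-5p stand far above the rest, and 8 families, among them miR-34c-5p, miR-146b-5p and miR-140-3p, have no reads with an ovine name.

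By seed, 2 groups made up much of the class. Among miRNA reads of 20 to 24 nt, bases 2 to 8 were AGCTTAT, the seed of miR-21, in 23.1% and ACCCGTA, that of miR-99 and miR-100, in 21.2%. GGCAGTG, shared by miR-34 and miR-449, was in 7.57%, CAGTGCA of miR-148 and miR-152 in 6.67%, GTAAACA of miR-30 in 3.98% and GAGGTAG of let-7 in 3.06%. The 10 leading seeds covered 76.3% of these reads.

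The listed miRNA groups were counted by ovine name. The let-7 family, which is abundant in differentiated cells, had 7 names, all with at least 100 reads, and together 25123 reads. The 4 names of the miR-30 family had 34335 reads, the 2 of miR-148 and miR-152 had 52328, and the 4 of miR-10, miR-99, miR-100 and miR-125 had 118865. The 5 names of miR-17-92 and its paralogs, linked to proliferation, had 5371 reads, the highest name being oar-mir-25. Sums by name leave out reads without an ovine name: by letters, the miR-100-5p family alone had 195158 reads. The miR-93-5p family, a listed paralog with no ovine name here, had 4285 reads by letters, above miR-25-3p with 3589. Of the imprinted DLK1-DIO3 cluster 48 names were found but 17 had at least 100 reads. The median level of the cluster was 6.31 RPM, against 14.4 RPM for all 99 ovine names. These 99 include the 48 cluster names, so the gap to the names outside the cluster is larger than these values show. The highest member of the cluster was oar-mir-323a, with 8306 of its 22345 reads.

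The label sperm was checked with miRNAs that mark cell types. The germ cell markers found, miR-34b, miR-34c, miR-449a and miR-449b, summed to 60961 reads or 6106 RPM (interval 6058 to 6155 RPM). Of these, miR-34c-5p had 58161 reads, miR-449a 2697, miR-34b-5p 100 and miR-449b 3. All 6 epithelial markers were found and summed to 14207 reads or 1423 RPM, of which miR-200b had 10918, miR-200c 1236, miR-200a 1225, miR-205 719, miR-429 94 and miR-141 15. White blood cell markers summed to 155 RPM, mostly the 5′ arm of miR-223 with 1053 reads and its 3′ arm with 380, while miR-142-3p had 47, miR-142-5p 25, miR-155 32 and miR-150 7. Smooth muscle and stromal markers reached 6.91 RPM, muscle markers 2.20 RPM with 19 reads of miR-1, red blood cell markers 1.002 RPM with 7 reads of miR-486 and 3 of miR-451, and the liver marker miR-122 0.501 RPM with 5 reads. miR-449c and miR-144 were not matched to any sequence here. The germ cell list stood above every other list through miR-34c-5p alone, and its other members together were below the epithelial list. A further 10609 miRNA reads of 20 to 24 nt had ATCACTA as bases 2 to 8. They may be the 3′ arm of miR-34b or of miR-34c, and these bases do not settle which. Such reads were not matched to a reference and are not in the sum. miR-34c and miR-449 are also known from ciliated epithelium, and the part of epithelial RNA in the library was not tested.

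The term misc RNA was on 470655 reads, and its leading sequences carry the letters of 7SL RNA as known for mammals; they are shown because 1 start supplies much of the class, with the shorter form first.
misc RNA, 25 nt: agttctgggctgcagtgcgctatgc
misc RNA, 33 nt: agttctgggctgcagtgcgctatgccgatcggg
misc RNA, 23 nt: ctggaggatcgcttgagctcagg
The 25 nt read had 35808 reads, the 23 nt read 31702 and the 33 nt read 19631. Reads beginning with the first 12 nt of the first line made up 24.02% of the class. The miRNA class also reached into this RNA: 3.12% of miRNA reads were longer than 26 nt, too long for a mature miRNA, and 99.3% of those shared at least 16 nt with misc RNA, against 1.17% of the shorter ones. A sequence with both terms was counted as miRNA by the order of classes, and 433680 reads stayed in the misc RNA class.

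Cytoplasmic rRNA fragments were many and spread out. The term 28S was on 298278 reads, 18S on 204690, rRNA with no species on 127147, 5S on 30887 and 5.8S on 903. Each species is shown by its most read annotated sequence that matches the genome.
18S rRNA: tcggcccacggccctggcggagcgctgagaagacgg
28S rRNA: ctccgggcgggcggcgggcggcgg
rRNA with no species: cgtgttaggacccgaaagatggtgaact
5S rRNA: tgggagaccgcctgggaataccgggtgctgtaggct
5.8S rRNA: aattgcaggacacattgatcatcgacactt
The 18S sequence of 36 nt had 37213 reads, 18.2% of the 18S reads, and 40.1% of the 18S reads were 34 to 42 nt. The 28S sequence shown had 11007 reads, 5.8S had 132 and 5S had 3316. Mitochondrial rRNA, with 184963 reads, was more even still: its leading sequence had 2999 reads, and its 10 leading sequences held 8.20% of the class.

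For 5S rRNA the annotation missed most reads. The most read genome-matching sequence without annotation, chosen after its values were seen, is the 5S read above with 1 more base at its 3′ end, shown in capitals.
Without annotation, 37 nt: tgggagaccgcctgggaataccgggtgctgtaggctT
It had 89310 reads, 26.9 times as many as the annotated 36 nt form. Reads with the same last 12 nt as this sequence numbered 158215, and 0% of them had an annotation, whereas reads with the same last 12 nt as the annotated form numbered 8088. A similar gap was seen at the 5′ end of 28S rRNA, as known for mammals, again chosen after its values were seen.
Without annotation, 22 nt: cgcgacctcagatcagacgtgg
Without annotation, 37 nt: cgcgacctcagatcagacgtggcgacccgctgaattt
The family that starts here had 118749 reads, 26.1% at 22 nt and 23.2% at 37 nt, and 0% were annotated. Reads that match the genome, have no annotation and share at least 16 nt with annotated rRNA numbered 308438. With all reads without annotation assigned in this way, rRNA held 10.6% of all reads in place of 6.63%, and nuclear tRNA 34.9% in place of 25.9%.

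Mitochondrial tRNA fragments had another shape than nuclear ones. Reads with a 5′ end term were 20.9% of the class and reads with no end term 79.0%. tRNA-Tyr had 20453 reads, tRNA-Asn 12146, tRNA-Phe 8517, tRNA-Met 5998 and tRNA-Ser-TGA 4595, out of 22 mitochondrial tRNA names found. Leading sequences of tRNA-Tyr, tRNA-Phe and tRNA-Ser-TGA are shown, with the anticodon in capitals where the whole of it is in the read.
mt-tRNA-Tyr, 27 nt: aatggctgagtaaagcaatagactGTA
mt-tRNA-Phe, 26 nt: tagcttaaacttaaagcaaggcactg
mt-tRNA-Ser-TGA, 28 nt: gagagagtcatagtggctatggtgttgg
The tRNA-Tyr read had 6437 reads and ends with its anticodon. Reads with its last 12 nt made up 23.7% of the class, 62.9% of them at 27 nt. tRNA-Asp had 3 reads and tRNA-Val 7.

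Small nuclear RNA was short, with a most frequent length of 19 nt, and many reads shared 1 end. Capitals mark the 12 nt that end 44.7% of the reads of the class, and the letters are those of U2, the RNA that pairs with the intron branch site.
snRNA, 19 nt: aatggatTTTTGGAGCAGG
snRNA, 18 nt: atggatTTTTGGAGCAGG
snRNA, 17 nt: tggatTTTTGGAGCAGG
These had 10694, 8031 and 5465 reads and differ by 1 base at a time at the 5′ end. Reads with this end numbered 37364, 28.8% at 19 nt and 21.6% at 18 nt. Y RNA had the reverse pattern: 1 start of 12 nt held 91.8% of its reads and 1 end of 12 nt at most 34.3%.

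Small nucleolar RNA, which guides modification of rRNA, had 13902 reads, 41.8% of them 25 to 28 nt. All 3 leading sequences hold CTGA, the letters of the D box of the box C/D kind, 2 bases before their 3′ end, marked in capitals.
snoRNA, first: gcgggtgatgcgaactggagtCTGAgt
snoRNA, second: tagcgtgttgacaagtctaactCTGAag
snoRNA, next: acgctgtgctgattgtcatgttCTGAtt
They had 1059, 537 and 372 reads. The related scaRNA had 745 reads, ribozyme RNAs 7801 and vault RNA 104.

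The term long non-coding RNA was on 85277 reads, with 4.77% in its leading sequence and 25.4% in sequences read once. Sequences that also carried a term of another class were counted there. The class that remained was the least concentrated of these classes, with 31.8% of its reads in sequences read once and a leading sequence of 635 reads. Its most frequent 3′ end, however, was shared by 1062 different sequences with 6166 reads, of which 31.01% were 26 nt. The second most read sequence of the class shows that end in its last 12 bases, and it had 454 reads.
lncRNA, 26 nt: caagaaactgtggaaaattctgaaag

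Some terms held reads whose letters point elsewhere. The term DNA, whose meaning is not given in the sources used here, was on 31460 reads. Its leading sequence had 5366 reads, and another with 2972 reads has the letters of miR-93-5p.
Term DNA, 23 nt: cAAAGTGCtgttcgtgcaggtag
The seed is in capitals. The term miRNA-antisense was on 8835 reads, of which 13.8% matched the genome and 85.9% were in 10 sequences. It held letters of miR-203, which is known from epithelium and is outside the epithelial list above: the family had 2753 reads or 276 RPM, 91.5% of them not matching the genome. The sequence shown is its most read one that matches, with 234 reads.
miRNA-antisense, 20 nt: gTGAAATGtttaggaccact
Antisense to long non-coding RNA was the most frequent antisense term with 26893 reads. In all, 462 different terms fell into 56 groups, 33 in sense and 23 antisense, and 25 groups had under 100 reads. Among these were mRNA with 15 reads, precursor tRNA with 4 and telomerase RNA with 1.

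Reads that matched the genome, had no annotation and shared no stretch of 16 nt with an annotated sequence numbered 1744940, or 17.5% of all reads, and showed the length and first base known for piRNAs. Of these, 942299 reads were 28 to 31 nt, and 79.3% of those started with T. The share was 83.5% at 29 nt and 80.7% at 30 nt, against 37.2% at 18 to 24 nt and 23.4% at 33 to 42 nt. Base 10 was A in 26.01% of the reads of 28 to 31 nt, in 26.4% of those that start with T and in 24.5% of the others; A at base 10 is known from piRNAs made in the ping-pong cycle. These reads were spread over 224081 sequences, 2532 of which held 50%. The 3 most read, chosen after their values were seen, had 11001, 6578 and 5058 reads, and the capital marks their first base.
28 to 31 nt, first: Tatttagatgactgtgaggttctccctgc
28 to 31 nt, second: Tacacagaaaatgtgggctcttcctgaa
28 to 31 nt, next: Ttggacttttaatctgttggcaacaggga
By distinct sequences instead of reads, 52.6% of those of 28 to 31 nt started with T.

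**Figure D5:**
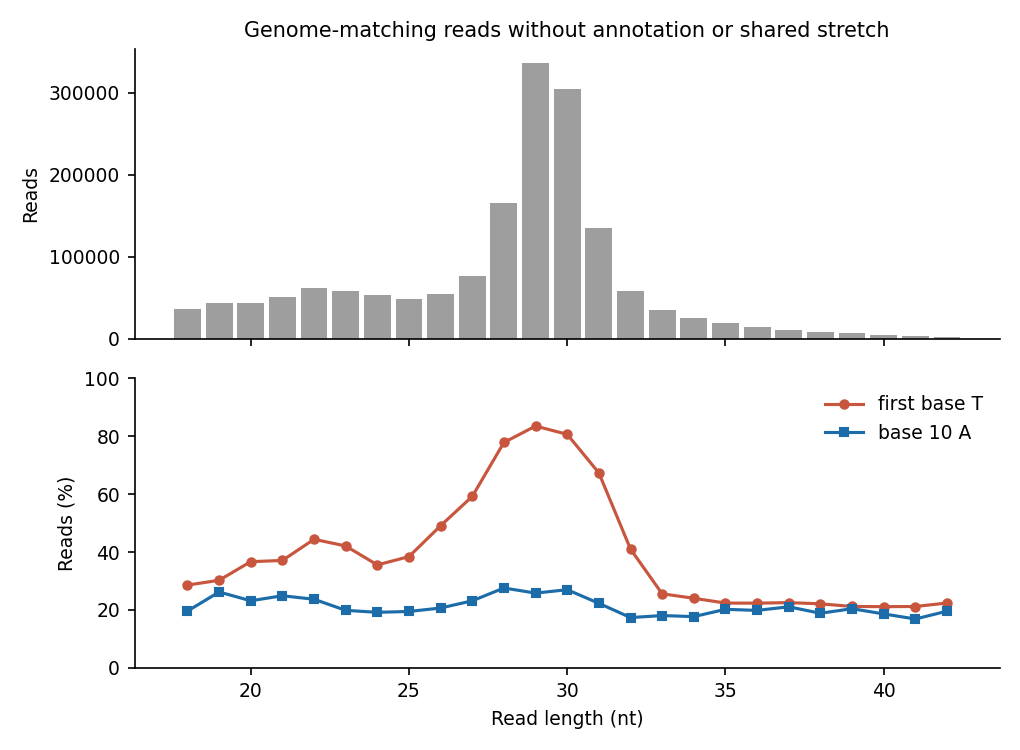
Reads (upper y axis) and the share of reads with T as first base or A as base 10 (lower y axis, percent) at each length in nt (x axis), for genome-matching reads without annotation or a shared stretch. Reads peak at 29 nt with 336336, and T as first base reaches 83.5% at the same length while A at base 10 stays between 16.9% and 27.6%.

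Reads with neither annotation nor a genome match made up 20.3% of the library, and 44.0% of them shared at least 16 nt with nuclear tRNA. Their sequences are not printed. Many had the letters of tRNA fragments with bases missing at the same few places. Of these reads, 795059 (39.2%) equalled an annotated, genome-matching sequence with 1 to 4 bases left out. Each form was given to its most read parent, and for 791575 reads this was a nuclear tRNA. Glu reads with 1 base missing at position 6 numbered 330984, and Glu reads with 3 bases missing from position 5 numbered 280318. Where several positions give the same letters, the leftmost is given, but none before position 5, where the search began. Gly reads with 1 base missing at position 6 numbered 88967 and Pro reads with 3 missing from position 5 numbered 28893. Set against annotated reads of the same amino acid, such forms were 36.1% of both together for Glu, 38.3% for Pro and 18.7% for Gly, but 0.422% for His. What produced the missing bases was not tested.

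A further 86367 reads without annotation or genome match, 4.26%, equalled an annotated sequence with 1 to 3 bases added at the 3′ end, and 68129 of these were miRNAs. Added bases were only A in 85.1% of the miRNA reads and only T in 6.52%. A single A was the most frequent addition with 51.5%, followed by AA with 31.5%. Substitutions accounted for 0.599% and insertions for 0.238% of the reads without annotation or match. For 1128891 of these reads no such form was found, and 921092 shared no stretch of 16 nt with an annotated sequence.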

How the data were processed

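Small RNA of ram sperm was sequenced after NEBNext library preparation, per the labels' protocols. Per the file headers, each table deposited by the authors lists distinct sequences with their length, count of reads, genome match and annotation terms. These deposited counts are whole numbers without normalization, and lengths are in nt. With the aligner, annotation source and genome build not given in the sources used here, no coordinates are printed.

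The 3 control tables were identical and counted as 1 library (9983895 reads). In shares of all reads, 3 reads, the most that a count of 0 allows, are 3.00e-05%. Python 3.11.15, pandas 2.3.3, numpy 2.4.6 and scipy 1.17.1 were used, with no filter on low counts and no test. A sequence got 1 class from its terms by precedence: miRNA came before tRNA, rRNA, Y RNA and misc RNA, and these before small nuclear, small nucleolar and long non-coding RNA. In all 4042 sequences had terms of several classes. Reads with several names went in full to each. Families share their first 18 nt, and a shared stretch is 16 nt found in annotated sequences of at least 2 reads. Parents of deletion (1 to 4 nt) and tail forms (1 to 3 nt) had at least 10 reads. The search was tested on simulated sequences. The anticodon was placed as its letters after a T within the loop region.

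Named items are the 12 ovine miRNA names, 12 nuclear tRNA names and 5 mitochondrial tRNAs with most reads, the leading annotated, genome-matching sequences of each class, and fixed lists of miRNA groups and cell type markers. miRNAs without an ovine name were recognised by their known mature letters, and miR-93, miR-203 and miR-133 were added after the data were seen. Members and lists were chosen with earlier results of these data known. Unannotated sequences shown were chosen after their values were seen; sequences that do not match the genome are not printed. Some other sequences are not reported here.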

Additional observations from a re-analysis of the deposited data

How the results depend on the processing

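No paired analysis was possible because only 1 group is described and its 3 tables are the same. Reading the table of replicate 2 or replicate 3 in place of that of replicate 1 gave the same value for every share. With all reads as denominator nuclear tRNA held 25.9%, miRNA 8.41%, Y RNA 7.41%, rRNA 6.63% and misc RNA 4.34%. With genome-matching sequences only these were 45.9%, 15.0%, 13.3%, 9.35% and 7.79% of annotated reads. With sequences of at least 2 reads they were 45.5%, 14.8%, 13.0%, 11.2% and 7.59%, and without sequences of several classes 45.4%, 14.1%, 13.0%, 11.6% and 7.61%. The 21 to 24 nt window held 18.5% of genome-matching reads, 17.5% with at least 2 reads and 20.7% of annotated reads, and the 29 to 33 nt window 51.3%, 48.6% and 53.4%. The number of sequences that hold 50% of reads was 101 among genome-matching sequences, 108 with at least 2 reads and 28 among annotated ones, each from fewer sequences. The share matching the genome was 79.5% with at least 2 reads and 62.95% of distinct sequences. The 7 smaller classes moved beyond counting error, with reads taken as independent, under the same 4 settings. Of the 12 leading miRNA names 10 were shared when reads were split equally among names, and of the 12 tRNA names 11. At this depth counting error is small if reads are taken as independent, and the missing spread between animals limits every value.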
